A study of Mus musculus with 6 samples.

Results

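The IL-6 family is described here by 10 of the 18182 genes in the files, chosen by symbol. They are the ligands Il6, Lif, Il11, Osm and Clcf1 and the receptor chains Il6ra, Il6st, Lifr, Osmr and Il11ra1. Their levels were measured by RNA sequencing in tumour cells of the mouse line Lewis lung carcinoma (LLC), labelled with red fluorescent protein and sorted from tumours by that colour. Wild type C57BL/6 mice had been injected under the skin with LLC-RFP alone (LLC alone, 3 libraries) or with LLC-RFP and bone marrow-derived mesenchymal stem cells (BMSCs) together (LLC with BMSCs, 3 libraries). Both groups thus share the host strain, the tumour line and the fluorescent marker, and the mice's age is not given in the labels. The question was what changes in LLC cells when the tumour is formed with BMSCs.

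Cytokines of this family signal through gp130, the receptor chain encoded by Il6st. IL-6 and IL-11 first bind a chain of their own (Il6ra, Il11ra1) that has no kinase docking site and then recruit a pair of gp130 chains, whereas LIF joins gp130 to the LIF receptor (Lifr) and oncostatin M joins it to its own receptor (Osmr). The bound JAK kinases phosphorylate STAT3, and SOCS3, a STAT3 target, shuts the receptor off again. CLCF1 acts through CNTFR, gp130 and the LIF receptor. In tumours these cytokines come from cancer cells, stromal cells and leukocytes alike.

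The libraries held 33476347 to 46189113 estimated fragments on genes, so that 3 counts corresponded to 0.0650 to 0.0896 CPM. The labels do not say whether the libraries of a group came from separate mice, and p-values then measure only the spread between these libraries, which may be technical. LLC alone replicate 3 stood apart by transcript length, with a median log2 deviation from all libraries of 0.31 among short genes (lowest quintile of length) and -0.37 among long ones (highest quintile). LLC alone replicates 1 and 2 had 0.06 and 0.04 among short genes and -0.02 and -0.003 among long ones. All LLC with BMSCs libraries were low among short genes (-0.19, -0.09 and -0.11) and high among long ones (0.18, 0.10 and 0.13). The length trend thus also ran along the groups, and its source was not tested. Values given in series follow the order of replicates 1 to 3, and levels are in FPKM, fragments scaled for transcript length and library total (CPM are scaled for library total alone). Differences are log2 fold changes, LLC with BMSCs over LLC alone, with a standard error (SE) and with p adjusted over all genes by Benjamini-Hochberg. LLC alone replicates 1 and 2, and LLC with BMSCs replicates 2 and 3, were the closest pairs, although both differed by more than sampling noise (median chi-square 1.97 and 1.70 times its expectation). Of 9 epithelial markers 7 were in the files, and both that were tested were higher in LLC with BMSCs, as were 31.5% of all tested genes. Krt8 had 90.3 to 102 FPKM in LLC alone and 108 to 113 FPKM in LLC with BMSCs, a log2 fold change of only 0.19. Krt18 had 0.03 to 0.13 FPKM in LLC alone and 0.63 to 0.69 FPKM in LLC with BMSCs. The other 5, Epcam, Cdh1, Krt7, Krt19 and Cldn7, did not exceed 0.07 FPKM in any library.

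Of the 10 family genes, 3 were higher in LLC with BMSCs (Osmr, Lif and Il6st) and 3 were lower (Il6, Il11 and Il11ra1) when genes were called by quasi-likelihood testing in edgeR with the threshold at 0.05. All 10 passed the filter on low counts. Over the 13353 tested genes, 31.5% were called higher and 31.3% lower by the same rule, so that the number of family genes called, 6 of 10, was near the 62.9% called among all genes. The family is therefore described by which members moved and how far. The groups did not overlap in FPKM for 9 of the 10 genes, against 70.6% of all tested genes. With BMSCs 5 of them were higher in every library and 4 lower, against 37.0% and 33.7% of all tested genes. The median log2 fold change was 0.36 over the family and 0.01 over all tested genes.

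**Figure D1:**
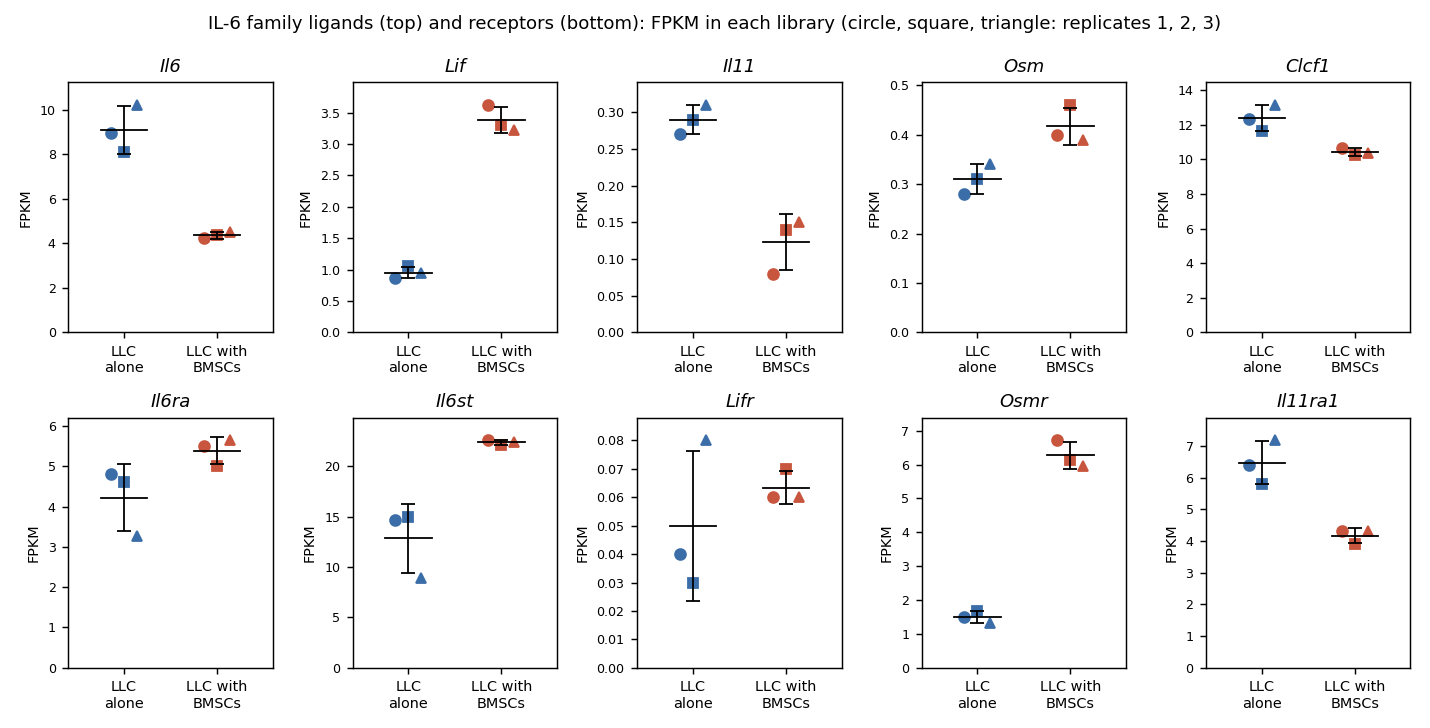
FPKM of the 5 ligands (top row) and 5 receptor chains (bottom row) in each library, with the mean and SD of 3 libraries per group as lines and bars and a separate linear axis from 0 in each panel. Osmr and Lif rose from 1.51 to 6.27 and from 0.953 to 3.39 mean FPKM, Il6 fell from 9.09 to 4.37, and Lifr stayed between 0.03 and 0.08 in all libraries.

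The regions around the start sites of 4 genes that moved are shown because Osmr, Lif and Il6st rose together while Il6 fell. They are RefSeq windows of 300 bases on GRCm38.p6 that span the start site, at chr15:6874264-6874563 on the minus strand (Osmr), chr11:4257318-4257617 on the plus strand (Lif), chr13:112463820-112464119 on the plus strand (Il6st) and chr5:30012864-30013163 on the plus strand (Il6). Capitals mark matches to the searched motifs on either strand.
Osmr: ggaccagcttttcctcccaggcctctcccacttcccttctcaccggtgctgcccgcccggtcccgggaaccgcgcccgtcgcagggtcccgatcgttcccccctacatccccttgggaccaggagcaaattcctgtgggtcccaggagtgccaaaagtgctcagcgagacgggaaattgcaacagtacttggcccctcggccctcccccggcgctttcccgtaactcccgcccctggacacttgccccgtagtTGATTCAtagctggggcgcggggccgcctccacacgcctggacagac
Lif: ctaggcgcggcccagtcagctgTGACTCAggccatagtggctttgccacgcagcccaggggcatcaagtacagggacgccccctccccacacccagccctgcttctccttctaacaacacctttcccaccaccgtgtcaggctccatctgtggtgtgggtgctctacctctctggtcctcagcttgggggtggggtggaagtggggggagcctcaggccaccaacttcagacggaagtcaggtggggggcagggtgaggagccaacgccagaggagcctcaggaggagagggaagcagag
Il6st: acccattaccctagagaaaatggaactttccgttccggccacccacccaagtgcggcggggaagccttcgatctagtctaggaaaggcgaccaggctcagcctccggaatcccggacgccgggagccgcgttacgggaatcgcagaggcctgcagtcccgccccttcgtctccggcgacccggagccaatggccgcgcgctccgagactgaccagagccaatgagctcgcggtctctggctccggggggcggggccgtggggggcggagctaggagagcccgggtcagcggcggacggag
Il6: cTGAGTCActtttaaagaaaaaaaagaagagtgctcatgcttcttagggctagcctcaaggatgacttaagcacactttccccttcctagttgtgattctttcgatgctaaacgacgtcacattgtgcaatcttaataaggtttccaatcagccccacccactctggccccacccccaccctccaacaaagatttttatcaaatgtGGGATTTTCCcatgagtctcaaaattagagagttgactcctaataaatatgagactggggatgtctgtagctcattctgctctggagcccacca
The motifs were TGANTCA (AP-1), TTCNNNGAA (STAT), an NF-kB motif and an interferon response element, with no overlap between matches. Of the 10 genes, 8 had a window and 3 of these had more than 1, which made 11 windows. The AP-1 letters were found in 4 of the 11 windows, those of Osmr, Lif and Il6 and 1 of the windows of Il11, against 7.81% of the 32851 windows searched. The searched windows do not cover every gene. The NF-kB letters GGGATTTTCC lay 44 bases before the start of Il6 and in no other window of the family, against 0.411% of the searched windows. No window of the family held the STAT or interferon letters (8.30% and 3.44% of the searched windows). A match is a string of letters and was not tested as a binding site, and genes that rose (Osmr, Lif) and genes that fell (Il6, Il11) both held the AP-1 letters.

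Osmr, the oncostatin M receptor chain that pairs with gp130, rose most of the family. Its FPKM was 1.51, 1.69 and 1.33 in LLC alone and 6.71, 6.13 and 5.97 in LLC with BMSCs. Every LLC with BMSCs library lay far above every LLC alone library, and the replicates within each group were close. The mean went from 1.51 ± 0.18 to 6.27 ± 0.389 FPKM (SD, n = 3 each). This was a log2 fold change of 2.04 (SE = 0.099, edgeR adjusted p = 2.74e-06), and 3.90% of tested genes had a larger one. With each library's trend over transcript length removed, the log2 fold change of Osmr was 1.88 (edgeR adjusted p = 8.69e-08). As the deposited values divide the gene, the rise lay in the transcript NM_011019 (4835 bases), which went from 1.39 ± 0.0872 to 6.19 ± 0.348 FPKM (SD, n = 3 each). NM_001310469 (4850 bases) stayed at or below 0.2 FPKM in every library. Its estimated counts were 33.65, 32.59 and 0 in LLC alone and 34.01, 0 and 21.08 in LLC with BMSCs. The division between transcripts of such similar length was not tested.

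Il6st, the gp130 chain that all these receptors share, was the most abundant receptor transcript and rose less. Its FPKM was 14.67, 15.0 and 8.92 in LLC alone and 22.56, 22.15 and 22.37 in LLC with BMSCs. The groups did not overlap, but LLC alone replicate 3 lay well below the other libraries of its group. This was a log2 fold change of 0.78 (SE = 0.18, edgeR adjusted p = 0.00573). Il6st is a long transcript of 5452 bases, and with each library's trend over transcript length removed the log2 fold change was 0.60 (edgeR adjusted p = 0.0015), while without LLC alone replicate 3 it was 0.58 (edgeR adjusted p = 6.84e-06). In RefSeq's gene order it lies beside Il31ra, which encodes another gp130-like chain and had at most 2 counts in any library.

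Of the ligand-specific chains of IL-6 and IL-11, Il11ra1 fell and Il6ra did not pass the threshold. Il6ra had 4.8, 4.61 and 3.26 FPKM in LLC alone and 5.51, 5.01 and 5.64 in LLC with BMSCs. The groups did not overlap in FPKM, but the lowest library was again LLC alone replicate 3. The log2 fold change of 0.33 did not pass the threshold (95% interval 0.01 to 0.66, edgeR adjusted p = 0.0695), although it did without LLC alone replicate 1 (0.44, edgeR adjusted p = 0.0419), without LLC alone replicate 3 (0.18, edgeR adjusted p = 0.0494) and with DESeq2 (0.33, adjusted p = 0.0447). In the GENCODE annotation 242 of 8642 exon bases of Il6ra lie opposite an antisense gene, Gm42809, whose reads cannot be told apart without strand. Il11ra1 had 6.41, 5.81 and 7.17 FPKM in LLC alone and 4.32, 3.89 and 4.30 in LLC with BMSCs. All libraries of LLC with BMSCs were thus below all libraries of LLC alone, with a log2 fold change of -0.65 (SE = 0.10, edgeR adjusted p = 9.69e-04). With the length trend of the libraries removed it was -0.51 (edgeR adjusted p = 5.87e-04). The counts of Il11ra1 were fractional in 3 of 6 libraries, as arises when reads are divided among genes. A near-identical paralogue, Il11ra2, is known in the mouse but had no entry in the files, so that this level is uncertain.

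Lifr, the chain through which LIF signals, was close to the limit of detection. It was listed at 0.04, 0.03 and 0.08 FPKM in LLC alone and at 0.06, 0.07 and 0.06 in LLC with BMSCs, from 3.97 to 14.1 estimated counts per library. The groups overlapped, and the log2 fold change of 0.53 had a 95% interval from -0.26 to 1.32 (edgeR adjusted p = 0.204), so that no difference was detectable at this depth. Of the tested genes, 98.9% had a higher mean FPKM. Osmr, which rose 4.12-fold in the edgeR fit, is the neighbour of Lifr on chromosome 15. In LLC with BMSCs the ratio of Osmr to Lifr FPKM was 111.8, 87.6 and 99.5, and in LLC alone 37.8, 56.3 and 16.6. The ratio rests on the few counts of Lifr and varied widely within LLC alone.

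Among the ligands, Lif rose and Il6 fell. Lif, leukaemia inhibitory factor, had 0.87, 1.05 and 0.94 FPKM in LLC alone and 3.62, 3.31 and 3.23 in LLC with BMSCs. The groups were far apart, with a log2 fold change of 1.81 (SE = 0.096, edgeR adjusted p = 4.14e-06). With the length trend of the libraries removed it was 1.72 (edgeR adjusted p = 6.03e-07). As the deposited values divide the gene, most of the rise came from NM_008501, at 0.777 ± 0.11 and 2.89 ± 0.39 FPKM (SD, n = 3 each), and this division was not tested. The chromosomal neighbour of Lif, Osm, which encodes oncostatin M and is known mainly from leukocytes, was low throughout. Osm had 0.28, 0.31 and 0.34 FPKM in LLC alone and 0.40, 0.46 and 0.39 in LLC with BMSCs, or 19 to 37 counts per library. The FPKM values did not overlap, but the log2 fold change of 0.39 did not pass the threshold (95% interval -0.03 to 0.81, edgeR adjusted p = 0.107). It did with the length trend of the libraries removed, at 0.52 (edgeR adjusted p = 0.0287), and by limma on log2(FPKM + 1) with no filter on low values, at 0.11 (adjusted p = 0.0205).

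Il6, the cytokine that names the family, had 8.96, 8.10 and 10.21 FPKM in LLC alone and 4.22, 4.36 and 4.52 in LLC with BMSCs. Every library with BMSCs had less than every library without, by a log2 fold change of -1.08 (SE = 0.11, edgeR adjusted p = 9.11e-05), a 2.12-fold fall. With the length trend removed the fall was -0.81, the smallest of the settings on counts. Il11 was scarce, with 0.27, 0.29 and 0.31 FPKM in LLC alone and 0.08, 0.14 and 0.15 in LLC with BMSCs, or 17 to 25 against 6 to 12 counts. It also fell without overlap, with a log2 fold change of -1.25 (SE = 0.28, edgeR adjusted p = 0.00533), although so few counts leave a wide 95% interval of -1.90 to -0.60.

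**Figure D2:**
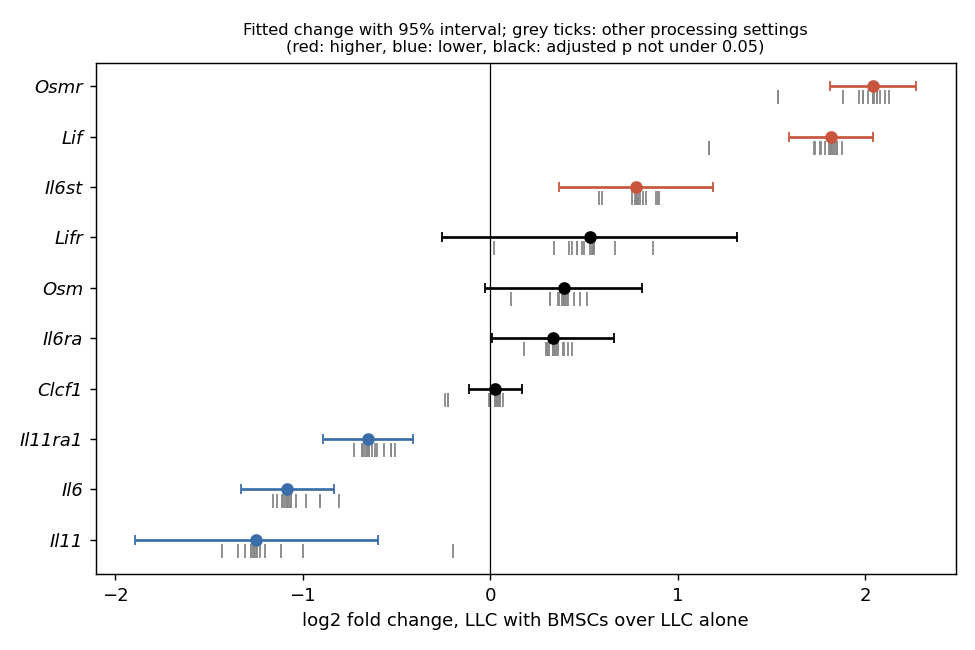
Log2 fold changes of the 10 family genes, LLC with BMSCs over LLC alone, from edgeR (points) with their 95% intervals (bars), and the values under the other settings tried (grey ticks below each point). The intervals of Osmr, Lif, Il6st and Il6ra lie above 0, that of Il6ra narrowly (0.01 to 0.66) and without passing the adjusted threshold, and those of Il11ra1, Il6 and Il11 below it. The outlying ticks of Osmr, Lif and Il11, at 1.54, 1.17 and -0.20, are on the log2(FPKM + 1) scale, which understates the change of low genes.

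Clcf1, cardiotrophin-like cytokine factor 1, was the most abundant ligand and did not pass the threshold in counts, with a log2 fold change of 0.03 (95% interval -0.11 to 0.17, edgeR adjusted p = 0.711). Its FPKM, however, was 12.34, 11.63 and 13.13 in LLC alone and 10.67, 10.23 and 10.37 in LLC with BMSCs, lower in every library with BMSCs. FPKM divides by length, and the files give Clcf1 a mean length over its transcripts of 2279 bases in LLC alone and 2777 bases in LLC with BMSCs. NM_019952, of 1862 bases, went from 10.4 ± 1.07 to 6.96 ± 0.11 FPKM (SD, n = 3 each), while BGI_novel_T004040, a transcript of 5636 bases that the authors' pipeline assembled, went from 1.35 ± 0.295 to 2.52 ± 0.153 FPKM (SD, n = 3 each). The assembled transcript held 13.4%, 11.6% and 8.08% of the gene's FPKM in LLC alone and 25.2%, 23.4% and 24.0% in LLC with BMSCs. The groups do not overlap, and LLC alone replicate 3, the library with the lowest values of long transcripts, was the lowest. No test of transcripts was made, and the position of the assembled transcript was not analysed here. In the GENCODE annotation 311 of 3806 exon bases of Clcf1 are shared with a gene on the same strand, AC109138.7. The assembled transcript is longer than these 3806 bases. It held 423.8, 252.7 and 273.5 estimated counts in LLC alone and 667.6, 588.0 and 607.5 in LLC with BMSCs. NM_019952 held 823.2, 576.3 and 960.9 in LLC alone and 566.7, 544.6 and 541.2 in LLC with BMSCs. The flat count of the gene thus depends on the assembled transcript, and its uncertainty is not limited to the shared bases.

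**Figure D3:**
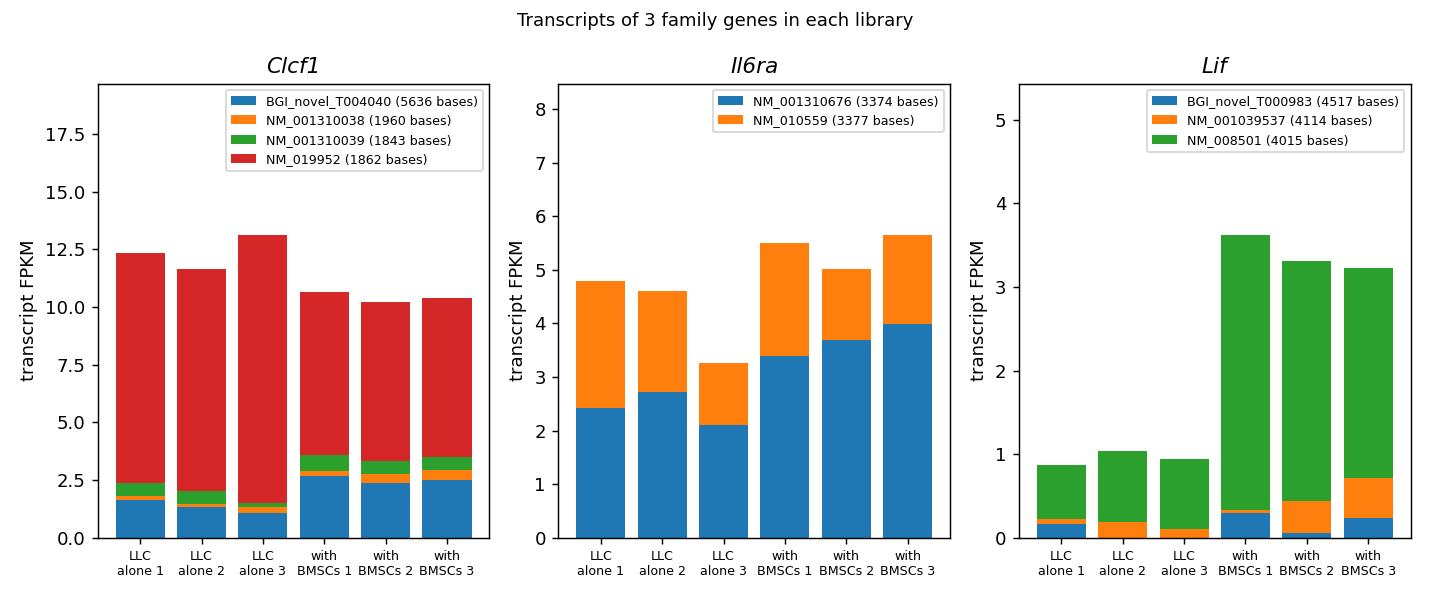
Transcript FPKM of Clcf1, Il6ra and Lif in each library, stacked by transcript with its length in bases, on linear axes from 0. In Clcf1 the share of NM_019952 goes from a mean of 83.9% in LLC alone to 66.8% in LLC with BMSCs, while in Lif the transcript NM_008501 holds most of the total in all 6 libraries.

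Because FPKM is per length, the members can be set beside each other. In LLC alone the order of mean FPKM was Il6st (12.9), Clcf1 (12.4), Il6 (9.09), Il11ra1 (6.46), Il6ra (4.22), Osmr (1.51), Lif (0.953), Osm (0.31), Il11 (0.29) and Lifr (0.05), and neighbours in this order had overlapping libraries only for Il6st with Clcf1 and for Osm with Il11. In LLC with BMSCs it was Il6st (22.4), Clcf1 (10.4), Osmr (6.27), Il6ra (5.39), Il6 (4.37), Il11ra1 (4.17), Lif (3.39), Osm (0.417), Il11 (0.123) and Lifr (0.0633), and only Il6 and Il11ra1 overlapped as neighbours. Osmr thus went from the sixth place to the third, and Il6 from the third to the fifth.

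Composition differed between the groups for ligands and receptors. Lif held 3.83%, 4.91% and 3.77% of the summed ligand FPKM in LLC alone and 19.1%, 17.9% and 17.3% in LLC with BMSCs. Il6 held 39.4%, 37.9% and 41.0% in LLC alone and 22.2%, 23.6% and 24.2% in LLC with BMSCs. Clcf1 held the largest share of the ligand FPKM in every library, at 52.7% to 56.2%. Among the receptors, the share of Osmr went from 6.05% ± 0.477 to 16.4% ± 0.784 and that of Il11ra1 from 26.4% ± 7.08 to 10.9% ± 0.404 (SD, n = 3 each). Per gp130 chain, the ratio of Osmr to Il6st FPKM was 0.103, 0.113 and 0.149 in LLC alone and 0.297, 0.277 and 0.267 in LLC with BMSCs, whereas that of Il6ra to Il6st was 0.327, 0.307 and 0.365 in LLC alone and 0.244, 0.226 and 0.252 in LLC with BMSCs. Relative to gp130, Osmr was thus higher and Il6ra lower in every library with BMSCs. These genes differ in length, and no share or ratio was corrected for the length trend. In LLC alone, Il11ra1 held 23.4%, 21.4% and 34.5% of the receptor FPKM and Il6st 53.5%, 55.3% and 43.0%. Without LLC alone replicate 3 their differences between the groups were -11.5 and 4.10 percentage points, against -15.5 and 7.90 with it. The 2 group sums, 10 shares and 3 ratios make 15 measures, and 14 of them did not overlap between the groups (p = 0.1 each in exact two-sided permutation tests, the smallest that 3 libraries against 3 allow, and 0.107 after Benjamini-Hochberg adjustment over the 15). The exception was the share of Lifr, at 0.111% to 0.385% in all libraries (exact permutation test, p = 1). The measures are not separate, since shares of the same sum depend on each other and the ratios reuse the same genes. Among all tested genes, 70.6% did not overlap in FPKM.

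**Figure D4:**
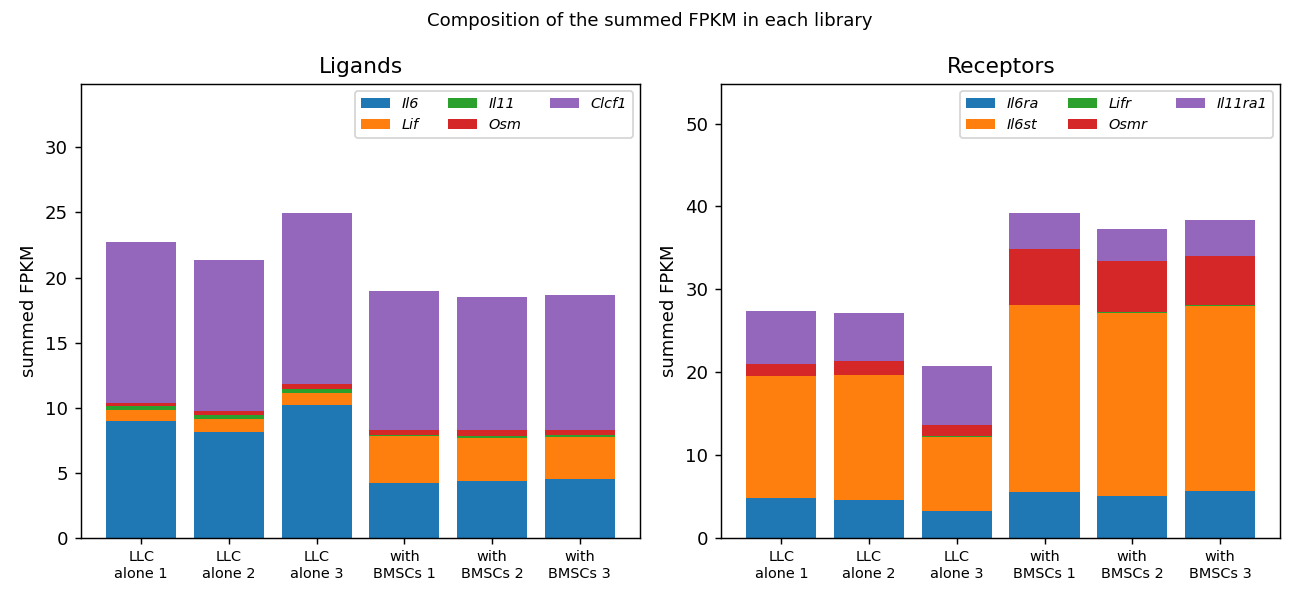
Summed FPKM of the 5 ligands (left) and the 5 receptor chains (right) in each library, stacked by gene on linear axes from 0. The ligand sum is 21.4 to 24.9 in LLC alone and 18.5 to 19.0 in LLC with BMSCs, and the receptor sum is 20.8 to 27.4 and 37.3 to 39.2.

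Other ligands and receptors that use gp130 or a gp130-like chain reached at most 3.57 FPKM in any library, the highest being Ctf1. Of 11 such genes listed, 10 occurred in the files and 5 passed the filter; 1 of the 5 was higher and 1 lower, beside 31.5% and 31.3% of all tested genes. Ctf1, cardiotrophin 1, which signals through gp130 and the LIF receptor, fell from 2.99 ± 0.515 to 1.92 ± 0.0872 FPKM (SD, n = 3 each), with a log2 fold change of -0.66 (edgeR adjusted p = 0.00523). Il27ra, the IL-27 receptor chain, rose from 0.137 ± 0.0462 to 0.327 ± 0.0929 FPKM (SD, n = 3 each), with a log2 fold change of 1.2 (edgeR adjusted p = 0.0125). Ebi3 and Cntf were tested and did not pass the threshold, with log2 fold changes of 0.06 and -1.22. Cntfr, the receptor chain that binds CLCF1 and CNTF, had at most 2 counts in any library, as did Il31ra, while Ctf2, Il27 and Il31 had at most 3.

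Downstream of the receptors, the list of gp130 signal transduction genes held 24 names, of which 23 were tested, 13 higher and 3 lower, with a median log2 fold change of 0.25. Among all tested genes 31.5% were higher and 31.3% lower, and the difference from these shares was not tested. Without LLC alone replicate 3, 5 were lower in place of 3. Among those that rose were Socs3, the feedback inhibitor that binds gp130, from 7.53 ± 0.461 to 31.5 ± 1.6 FPKM (SD, n = 3 each), and Stat3, from 11.3 ± 0.842 to 26.8 ± 0.819 (SD, n = 3 each). Their log2 fold changes were 2.04 and 1.22 (edgeR adjusted p = 6.64e-07 and 5.88e-06). Gab1, an adaptor, Mapk3, which encodes the kinase ERK1, and Pias3, an inhibitor of STAT3, fell, with log2 fold changes of -0.66, -0.40 and -0.39. Adam17, whose protease sheds the IL-6 receptor from the cell surface, was higher by 0.60 (edgeR adjusted p = 1.78e-04).

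Known STAT3 targets, with Socs3 again among them, moved in both directions. Of 35 listed, 33 were in the files and 30 were tested, with 14 higher, 8 lower and a median log2 fold change of 0.18. Without LLC with BMSCs replicate 3, 5 were lower in place of 8. The acute-phase protein gene Hp (haptoglobin) rose from 0.09 ± 0.0656 to 8.24 ± 0.142 FPKM, the mucin gene Muc1 from 0.243 ± 0.0231 to 1.79 ± 0.19 and Bcl3, an NF-kB cofactor, from 0.753 ± 0.0306 to 5.29 ± 0.596 (SD, n = 3 each), with log2 fold changes of 6.52, 2.86 and 2.79. Myc fell from 683 ± 5.35 to 298 ± 20.7 FPKM (SD, n = 3 each), and Nfkbiz and Cebpd, genes of nuclear regulators of inflammation, fell with log2 fold changes of -0.64 and -0.60. These counts stand beside the 31.5% higher and 31.3% lower among all tested genes, and the difference was not tested.

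**Figure D5:**
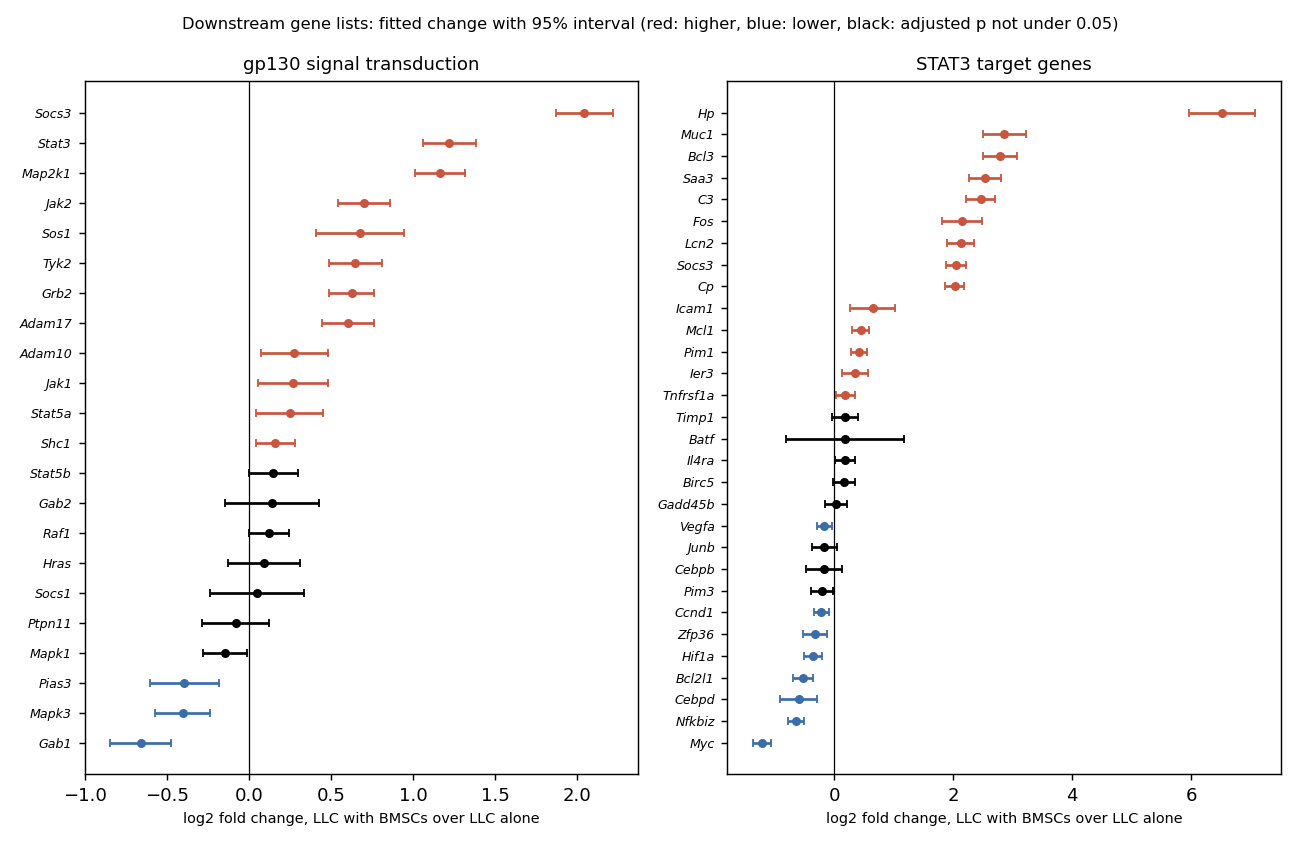
Log2 fold changes, LLC with BMSCs over LLC alone, of tested genes of the gp130 signal transduction list (left) and the STAT3 target list (right), as points with 95% intervals from edgeR. Socs3, Stat3 and Map2k1 lie above 1 on the left, and on the right the points run from -1.22 (Myc) to 6.52 (Hp).

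Markers of other cells moved with the groups, and fewer cells of a type and less RNA per cell cannot be told apart in such bulk libraries. Of 14 BMSC and fibroblast markers, 11 were tested and 11 were higher (31.5% of all tested genes), with a summed level of 370 to 433 CPM in LLC alone and 817 to 867 CPM in LLC with BMSCs. Col3a1 was the most abundant of them, at 41.2 ± 3.82 and 100.03 ± 1.48 FPKM (SD, n = 3 each), Col1a1 went from at most 0.02 to at least 1.85 FPKM, and Thy1 and Cxcl12 did not exceed 0.1 FPKM in any library. The 13 macrophage markers summed to 24.4 to 29.3 CPM in LLC alone and 36.4 to 38.5 CPM in LLC with BMSCs, with 6 of 8 tested genes higher, 1 lower, Cd14 the most abundant and Adgre1 at 0 FPKM in every LLC alone library. The lower one was Cd68, at 5.55 ± 0.509 and 3.03 ± 0.356 FPKM (SD, n = 3 each). Cd14 did not pass the threshold, with a log2 fold change of 0.07 (edgeR adjusted p = 0.587). C1qa, C1qb, C1qc, Cd163 and Fcgr1 were not tested and did not exceed 0.12 FPKM in any library. Of 12 neutrophil markers, 11 had values and summed to 0.893 to 1.23 CPM in LLC alone and 37.8 to 40.9 CPM in LLC with BMSCs, with 8 of 8 tested genes higher. S100a9 was the most abundant in FPKM in LLC with BMSCs, at 20.6 to 25.8. The largest part of the summed CPM there came from Mmp9, with 756, 721 and 751 counts, against 434, 421 and 522 for S100a9. Ly6g did not exceed 0.11 FPKM in any library. Of 12 lymphocyte markers, 10 had values and none passed the filter, and their sum was at most 0.57 CPM in every library. The 9 endothelial markers, of which Egfl7 was the most abundant, summed to 14.1 to 17.7 CPM in LLC alone and 13.3 to 14.3 CPM in LLC with BMSCs. The part of such cells in the rise of Osmr, Lif and Il6st was not tested, and no library of BMSCs, macrophages or neutrophils was analysed here.

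The 3 family genes of highest mean FPKM over the 6 libraries (in LLC with BMSCs alone, Osmr stood above Il6) were set beside all tested genes by the Euclidean distance between gene-centred log2 CPM values over the 6 libraries. The length trend was left in these values, and a small distance already implies a similar change between the groups. The genes nearest to Il6st were Lrrk2 (distance 0.0778), Hook3 (0.0826) and Phip (0.101), all higher in LLC with BMSCs. Those nearest to Clcf1 were Mier2 (0.0463), Chp1 (0.0506) and Ctnnbip1 (0.0595), and those nearest to Il6 were Lipt1 (0.0973), Apex1 (0.0995) and Bdh2 (0.108), all lower in LLC with BMSCs.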

How the data were processed

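Sorted LLC cells were sequenced as paired ends of poly-A RNA on the BGISEQ-500, although the sample labels name Illumina protocols. The authors deposited estimated counts for genes and transcripts, not normalized, gene lengths in bases, and FPKM values, which the authors scaled for length and library total. The submitters' processing notes name HISAT, StringTie, Cufflinks, GATK and the build mm8, without roles; whether counting used the strand is not given in the sources used here. Reads that match several genes are divided among them in such counts. The FPKM table of the whole series equalled the single files.

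Groups and replicate numbers were taken from sample titles. After rounding, all genes were tested in edgeR 4.0.16 (R 4.3.3) by quasi-likelihood with TMM and the default filter, p-values were adjusted by Benjamini-Hochberg, and the call was made at 0.05. Each SE was derived from the F statistic and the log2 fold change. FPKM served for levels. The precision of low genes is limited by 33476347 to 46189113 counts per library and 3 libraries per group, and the count floor covers counting error only. In simulated counts for this comparison (13172 genes, 200 of those with a mean above 1 CPM given a log2 change of 1), 195 were recovered, with 14 false calls. The simulated libraries were independent and had no length trend. The recovery does not cover genes as low as Lifr, Il11 and Osm.

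Alternatives were DESeq2 1.42.0, other scalings and filters, limma 3.58.1 on log2(FPKM + 1) and log2(FPKM + 0.1), a replicate block, removal of the length trend, each library left out, a threshold of 0.001, counts over length for shares and, chosen after seeing the data, the closest pairs of libraries summed. The family and the gene lists were chosen with earlier results of these data known. Genes named were the family, other gp130 family genes in the files, genes among the 3 largest rises and falls of the signal transduction and STAT3 target lists without overlap in FPKM, the 3 genes nearest to the 3 most abundant family genes, and the most abundant gene of each marker list (no marker was at 0 in every library). Adam17, Map2k1 and all other markers were named after their values were seen. Promoter windows of Osm and Clcf1 were not used here, and some genes that enter the counts are not reported by name.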

Additional observations from a re-analysis of the deposited data

How the results depend on the processing

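The calls of Osmr, Lif, Il6 and Il11ra1 kept their direction and their side of the threshold under the 18 alternatives, with log2 fold changes of 1.54 to 2.12, 1.17 to 1.88, -1.16 to -0.81 and -0.73 to -0.51. Il6st (0.58 to 0.90) and Il11 (-1.43 to -0.20) did so in all but the threshold of 0.001, and Il11 could not be fitted in 3 alternatives whose filters left it out. The family genes called numbered 2 to 4 in each direction over the alternatives. Clcf1, near 0 in the counts, was at -0.0022 with upper-quartile scaling and, by limma on FPKM, at -0.23 (log2(FPKM + 1), also without a filter on low values) and -0.24 (log2(FPKM + 0.1)), where the adjusted p was 0.0128, 0.0171 and 0.0124; the length in the FPKM differed between the groups. With each library left out in turn it was -0.0087 to 0.053. The difference in the share of Lifr was -0.0997 to 0.0377 percentage points with each library left out. Other gp130 family genes higher numbered 0 with limma on log2(FPKM + 1) or log2(FPKM + 0.1), whose filter left out Il27ra, and at a threshold of 0.001, where 0 were lower too. At that threshold 8 signal transduction genes were higher and 1 lower, 3 STAT3 targets were lower, and 1917 and 1835 of all genes were called in place of 4210 and 4183. With the length trend removed 5 signal transduction genes were lower, and with each library left out 3 to 5. STAT3 targets lower numbered 5 with the closest pairs summed and 5 to 9 with each library left out; these causes were not tested.

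Libraries with the same replicate number did not deviate together (correlations across genes 0.0762, -0.106 and 0.0572), so that they share only a number. With the number as a replicate block, 3 family genes were higher and 3 lower, 1 and 1 of the other gp130 genes, 11 and 3 of the signal transduction genes and 13 and 7 of the STAT3 targets. Counts limit Lifr, Il11 and Osm, with at most 37 per library.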

Other observations

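The files divide Il6ra between NM_001310676 and NM_010559, which differ by few bases in length (3374 and 3377). NM_001310676 went from 2.41 ± 0.31 to 3.70 ± 0.295 FPKM and NM_010559 from 1.81 ± 0.609 to 1.69 ± 0.401 FPKM (SD, n = 3 each), so that the higher values of Il6ra lay in the first, which held 50.4%, 59.0% and 64.2% of the gene's FPKM in LLC alone and 61.7%, 73.9% and 70.6% in LLC with BMSCs, in replicate order. These shares overlap between the groups. In Il11, NM_008350 held 77.8% of the FPKM in LLC alone replicate 1 and none in the other 5 libraries.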
